A study of Mus musculus with 7 samples.

Results

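The promoters of protein-coding genes were examined for estrogen receptor beta (ERβ) binding in the mouse ovary. A promoter window was defined as 1 kb upstream to 100 bp downstream of every protein-coding transcription start site (TSS) on the autosomes and chromosome X, and overlapping windows were merged. The 58465 transcripts of 21670 genes gave 30526 promoter windows, out of 75206 windows around the starts of all annotated transcript types. Of the promoter windows, 18933 were 1100 bp long and 11593 were longer after merging.

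ERβ is a ligand-activated transcription factor of the nuclear receptor family and is encoded by Esr2. In the ovary it is found mainly in granulosa cells, the cells that surround the oocyte, make estradiol from androgen and carry the gonadotropin receptors. It binds as a dimer to the estrogen response element (ERE), an inverted repeat of GGTCA, any 3 bases and TGACC, and most binding sites of estrogen receptors known from other tissues lie away from promoters.

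Chromatin immunoprecipitation followed by sequencing (ChIP-seq) was performed by the study with the monoclonal antibody PPZ0506 on ovaries of female C57BL/6J mice. The libraries examined were 3 ERβ ChIP replicates and 2 inputs, which are sheared chromatin sequenced without selection by the antibody, all from ovaries that express ERβ. By the methods of the study the mice were 4 to 16 weeks old, each ChIP replicate pooled the ovaries of 7 mice, and the estrous stage was not fixed, so the signal is an average over the organ in which fewer bound cells and less binding per cell cannot be told apart. ChIP-seq samples from ovaries with deleted ERβ were not analysed here.

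All values were read from genome tracks of normalised coverage, called signal below. The genome mean of the signal was nearly equal in the libraries, between 0.362 and 0.370. The tracks hold no read counts, so read depth was not used here and the precision was taken from the spread between replicates. ChIP replicate 3 stood apart from the other ChIP replicates at GC-rich promoters, which is described with the GC classes.

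Within each promoter, the signal was averaged in 200-bp windows at steps of 10 bp and divided by the mean of the 2 inputs, which was raised to the genome mean of the inputs where it was lower. The highest value in a promoter is called its fold, and a promoter over 4-fold in at least 2 of the 3 ChIP libraries is called bound. This rule chose 254 of 30526 promoter windows (0.832%), which belong to 274 genes. The folds of these promoters are therefore given as a description and not as a test.

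Every bound promoter whose highest 200 bp held a perfect ERE is shown first, because the sequence played no part in the rule. There were 8 of them. Each line gives the genomic sequence (GRCm38, mm10) on the strand of the nearest TSS, 5′ to 3′, with the ERE in capitals and its distance from that TSS, negative upstream. The first 6 stretches overlap no annotated exon, and the last 2, which lie in exons, are limited to the ERE and 8 bases on each side.

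Map2k1 (chr9:64253869-64254001, ERE at -304 bp from the TSS): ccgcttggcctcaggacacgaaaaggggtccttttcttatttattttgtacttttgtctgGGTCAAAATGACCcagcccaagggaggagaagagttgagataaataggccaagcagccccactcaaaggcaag
Map2k7 (chr8:4239116-4239248, -923 bp): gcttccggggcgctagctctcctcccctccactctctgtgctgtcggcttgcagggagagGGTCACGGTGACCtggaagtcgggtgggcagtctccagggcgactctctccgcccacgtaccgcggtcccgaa
Samd5 (chr10:9675448-9675580, -306 bp): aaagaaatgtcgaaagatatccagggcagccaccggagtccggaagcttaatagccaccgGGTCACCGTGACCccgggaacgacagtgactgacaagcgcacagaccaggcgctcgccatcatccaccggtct
Nisch/Tnnc1 (chr14:31207706-31207838, -540 bp): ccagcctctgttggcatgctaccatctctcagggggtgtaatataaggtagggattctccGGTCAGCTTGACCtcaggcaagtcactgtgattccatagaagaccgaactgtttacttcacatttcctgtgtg
Hey2 (chr10:30843236-30843368, -501 bp): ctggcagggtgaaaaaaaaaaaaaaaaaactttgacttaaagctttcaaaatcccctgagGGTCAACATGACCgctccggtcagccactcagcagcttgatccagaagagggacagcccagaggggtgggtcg
Nrip1 (chr16:76373626-76373758, 134 bp): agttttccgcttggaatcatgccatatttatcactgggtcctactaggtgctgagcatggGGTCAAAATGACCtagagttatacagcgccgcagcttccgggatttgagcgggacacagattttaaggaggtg
Spink4 (chr4:40920107-40920135, 69 bp): ctgtggctGGTCACCCTGACCttggttcc
Ebag9 (chr15:44619565-44619593, -12 bp): tgtttccgGGTCAGGGTGACCtgtgggga

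All 8 were over 4-fold in each of the 3 ChIP libraries. The highest was Map2k1, which encodes the kinase MEK1 of the ERK pathway, at 19.9-, 23.4- and 28.2-fold in ChIP replicates 1, 2 and 3. Map2k7, a kinase of the JNK pathway, had 12.03-, 14.9- and 26.7-fold. Nrip1, the corepressor RIP140 of nuclear receptors, had 5.99-, 7.29- and 8.07-fold at this start and 5.57-, 6.03- and 6.54-fold at a second bound window that held no ERE within 2 mismatches. Ebag9, a known estrogen-responsive gene, had 6.37-, 7.94- and 11.9-fold, and Hey2, a Notch target, had 7.92-, 9.14- and 9.47-fold. The remaining 3 promoters, Spink4, Samd5 and Nisch/Tnnc1, had mean folds of 11.7, 9.57 and 9.03.

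Over 4-fold were 198, 277 and 418 promoters in ChIP replicates 1, 2 and 3. Each input was also divided by the other alone, raised to the genome mean of that other where it was lower. By this measure 6 promoters passed in Input replicate 1 and 20 in Input replicate 2. None passed in both, but the same 200 bp cannot be over 4-fold in both directions. This count is therefore no background for the rule of at least 2 ChIP libraries. Of the 254 bound promoters, 168 passed in all 3 ChIP libraries, 69 in replicates 2 and 3, 9 in replicates 1 and 3, and 8 in replicates 1 and 2. A further 217 promoters passed in a single library, 172 of them in replicate 3. At 2-fold the inputs had 5279 and 1594 promoters and the ChIP libraries 2452, 3554 and 5192, so that a fold of this size did not separate them. Over 16-fold, Input replicate 2 still had 7 promoters, as many as ChIP replicate 1, against 13 and 19 in ChIP replicates 2 and 3, and its highest fold over Input replicate 1 was 123. High folds in a single library were thus also found without ChIP.

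**Figure D1:**
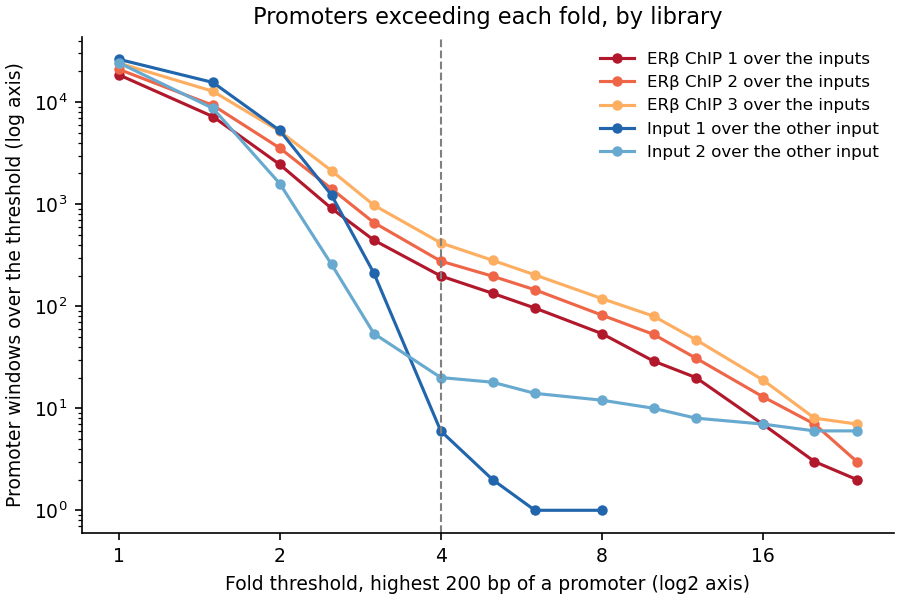
Number of promoter windows (log axis) whose highest 200-bp fold exceeded each threshold (log2 axis), for the 3 ERβ ChIP libraries over the mean of the inputs and for each input over the other. At 4-fold (dashed line) the ChIP libraries had 198, 277 and 418 promoters and the inputs 6 and 20. Points at 0 cannot be drawn, and Input 1 had none above 10-fold.

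The fold was then read in the library that had not been used to choose the promoters. The 237 promoters over 4-fold in ChIP replicates 2 and 3 had a median of 5.06-fold in replicate 1, and 159 of them (67.1%) were over 4-fold there. The 177 chosen with replicates 1 and 3 had a median of 7.47-fold in replicate 2, with 167 (94.4%) over 4-fold. The 176 chosen with replicates 1 and 2 had a median of 9.06-fold in replicate 3, with 166 (94.3%) over 4-fold. The mean of the 3 held-out medians was 7.19 ± 2.01 (SD, n = 3). Under 2-fold in the held-out library were 8, 0 and 2 promoters, respectively. The inputs were the same in the choice and in the held-out fold, so only the selection on the ChIP libraries is taken out.

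The highest 200 bp lay at nearly the same place in the libraries. The distance between the highest windows of the libraries that passed had a median of 20 bp and was at most 50 bp in 214 of the 254 bound promoters and over 200 bp in 6. The same rule called 184 of 44894 start windows of transcripts that are not protein-coding (0.41%) and 68 of 25754 windows of the same lengths shifted 10 kb upstream and clear of any annotated start (0.264%). Neither set was matched to the promoters in GC content. The share of bound promoters itself ran from 0.151% under 45% GC to 1.82% at 65% GC and over.

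The mean fold of the bound promoters ranged from 3.47 to 29.0, with a median of 6.51, and 86 reached 8-fold and 10 reached 16-fold. The 3 bound promoters nearest to the threshold were Parg/Timm23, Keap1 and Cnih4/Nvl, with second-highest folds of 4.01, 4.01 and 4.03. Just below it were Akr1cl, Tnfaip2 and Mfsd13b/Cdr2, with second-highest folds of 3.998, 3.99 and 3.98. The bound class therefore has no gap at its lower edge.

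The highest promoter was that of Npr2 (chr4:43630935-43632284), the receptor for C-type natriuretic peptide, whose cyclic GMP holds the oocyte in meiotic arrest. It had 24.4-, 22.5- and 40.0-fold in ChIP replicates 1, 2 and 3 (29.0 ± 9.60, SD, n = 3). In its highest 200 bp the signal was 17.6, 16.02 and 28.8 in the ChIP libraries against 0.724 and 0.716 in the inputs. Every ChIP library was thus more than 20 times above both inputs there.

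Both GATA factors of granulosa cells were among the highest promoters. Gata6 had 23.1-, 28.4- and 32.3-fold, with signal of 14.4, 17.6 and 20.2 against 0.606 and 0.644 in the inputs. Gata4 (chr14:63245149-63246271) had 18.7-, 23.7- and 25.8-fold, with signal of 20.5, 26.0 and 28.2 against 1.04 and 1.15. These proteins are zinc-finger transcription factors of follicular and steroidogenic cells.

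The promoter of Amh (chr10:80804243-80805342), the granulosa cell hormone that restrains follicle recruitment, had 27.9-, 27.8- and 14.0-fold. It was 1 of 18 bound promoters in which replicate 1 was the highest, whereas replicate 2 was the highest in 60 and replicate 3 in 176. The signal at its highest 200 bp was 12.96, 12.92 and 6.53 in the ChIP libraries against 0.407 and 0.524 in the inputs. Amh was thus the reverse of the usual order of the libraries, and still its lowest ChIP value was over 10 times the higher input.

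The remaining leading promoters belonged to genes of varied function. Mad2l1, a spindle checkpoint protein, had a mean fold of 22.0 ± 6.53 (SD, n = 3), and Ccdc117 had 26.1 ± 5.86. Perp, an effector of p53 in cell adhesion, had 17.8 ± 2.61, and Skil, which encodes the SMAD corepressor SnoN, had 17.1 ± 2.84. Kinase signalling was represented by Map2k1 and Map2k7, by Pik3cd (14.8 ± 4.03), a catalytic subunit of phosphoinositide 3-kinase, and by Ksr1 (14.7 ± 1.81), a scaffold of the ERK cascade. Mdfic (15.98 ± 3.46), Uba7 (15.4 ± 1.70), the activating enzyme for the modifier ISG15, and Dok7 (14.8 ± 3.6), an adaptor of the muscle kinase MuSK, completed the 15 highest.

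**Figure D2:**
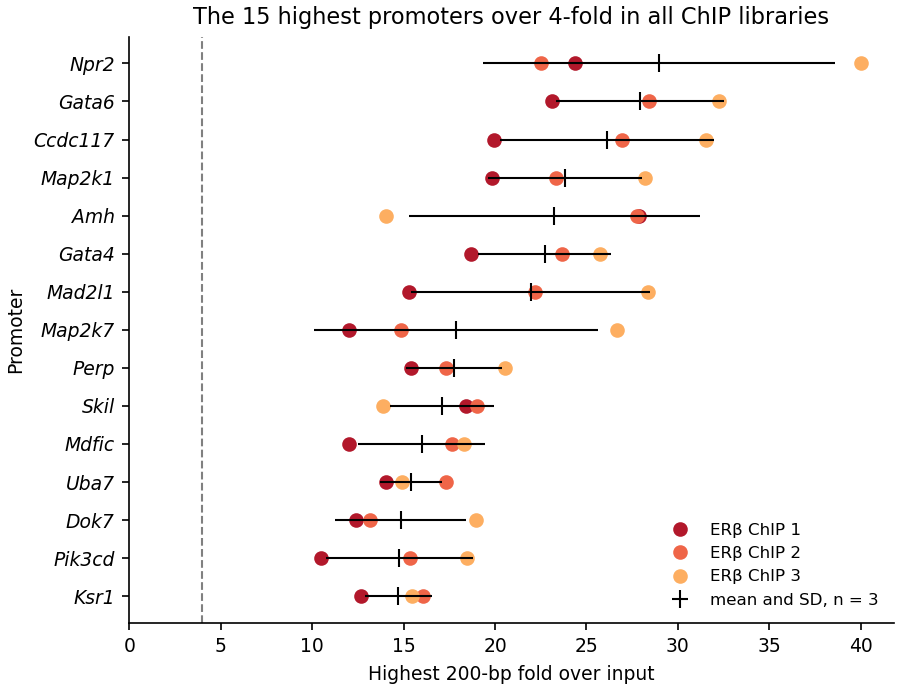
Highest 200-bp fold over input (linear axis from 0) of the 15 promoters with the highest mean fold among those over 4-fold in all 3 ERβ ChIP libraries. Coloured points are the libraries, the black mark and line are the mean and SD (n = 3), and the dashed line is at 4-fold. Replicate 3 was the highest in most of these promoters and the lowest in Amh and Skil.

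The sequences under the leading sites differed in how far they matched an ERE. Below, the best ERE is in capitals for Mad2l1 and Ksr1 (1 mismatch in its 10 fixed bases) and for Gata4 (2 mismatches). Amh and Npr2 held no ERE within 2 mismatches in their highest 200 bp, and the capitals there mark the half-site AGGTCA or its complement. The stretch of Npr2 is short because it overlaps an annotated exon.

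Mad2l1 (chr6:66535047-66535179): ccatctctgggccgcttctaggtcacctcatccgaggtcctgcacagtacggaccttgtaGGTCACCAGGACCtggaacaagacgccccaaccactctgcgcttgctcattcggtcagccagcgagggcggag
Ksr1 (chr11:79075168-79075300): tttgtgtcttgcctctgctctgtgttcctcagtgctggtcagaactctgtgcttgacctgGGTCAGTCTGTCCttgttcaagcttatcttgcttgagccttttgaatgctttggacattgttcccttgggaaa
Gata4 (chr14:63245549-63245681): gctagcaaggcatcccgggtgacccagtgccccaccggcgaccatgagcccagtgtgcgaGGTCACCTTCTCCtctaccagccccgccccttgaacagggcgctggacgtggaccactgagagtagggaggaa
Amh (chr10:80804927-80805059): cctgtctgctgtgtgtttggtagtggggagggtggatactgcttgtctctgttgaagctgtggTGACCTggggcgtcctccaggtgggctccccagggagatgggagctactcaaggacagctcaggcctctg
Npr2 (chr4:43631420-43631448): ccgaggcgaccTGACCTggacgagcgagc

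To ask how far the sequence alone goes with binding, every promoter was classed from its sequence alone, by the closest ERE anywhere in its window. Of 52 promoters with a perfect ERE, 8 were bound (15.4%). With 1, 2 and 3 mismatches, 59 of 1050 (5.62%), 130 of 10535 (1.23%) and 57 of 17891 (0.319%) were bound. None of the 998 promoters whose best match had 4 or more mismatches was bound. Longer windows offer more places for a match, and among the windows of 1100 bp alone the shares were 16.1%, 4.5%, 1.04% and 0.208% for 0 to 3 mismatches.

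Within GC classes, the share fell from 1 to 2 to 3 mismatches in each of the 4 classes, and perfect EREs had the highest share in the middle classes only. Between 45% and 55% GC, 6 of 27 promoters with a perfect ERE (22.2%), 30 of 584 with 1 mismatch (5.14%) and 64 of 5474 with 2 mismatches (1.17%) were bound. Between 55% and 65% GC, the counts were 2 of 8 (25%), 24 of 234 (10.3%) and 56 of 2248 (2.49%). Under 45% GC, none of the 16 promoters with a perfect ERE, 3 of 218 with 1 mismatch (1.38%) and 7 of 2641 with 2 mismatches (0.265%) were bound. At 65% GC and over, the only promoter with a perfect ERE was not bound, and 2 of 14 with 1 mismatch (14.3%) and 3 of 172 with 2 mismatches (1.74%) were.

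**Figure D3:**
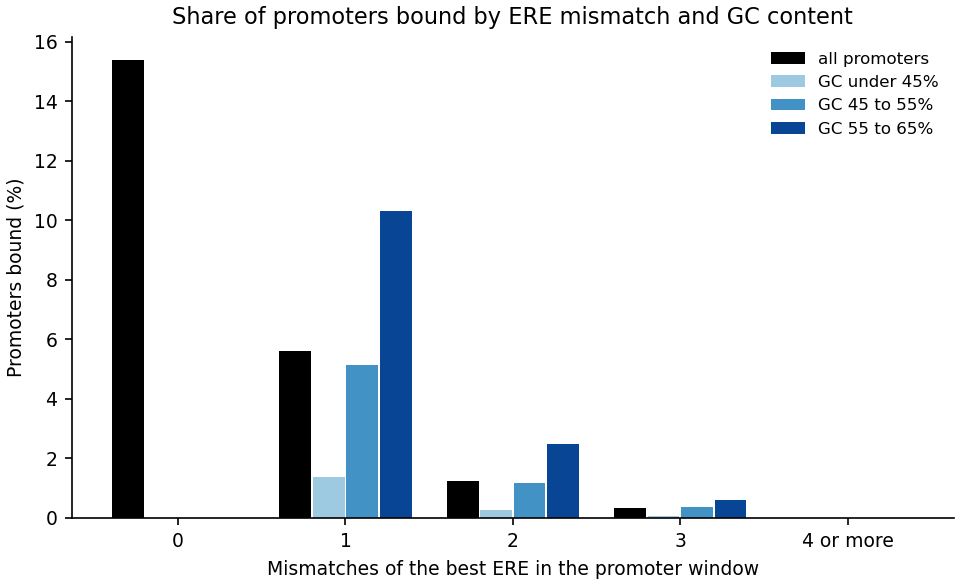
Share of promoters called bound (%, bars from 0) by how many mismatches the best ERE of the promoter window had, for all promoters (black) and by GC content (blue). The share over all promoters fell from 15.4% with a perfect ERE to 0.319% with 3 mismatches. Perfect EREs are drawn for all promoters only, since the GC classes held 27 or fewer, and the class of 65% GC and over is left out.

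Most promoters with a good ERE were not bound. Of the 52 with a perfect ERE, 38 had a second-highest fold under 2 and 6 had one of 2 to 4. The highest of the unbound were Gm45844 (3.18-, 3.74- and 4.84-fold) and the shared promoter of Rxrb, a retinoid X receptor, and Slc39a7 (3.05-, 2.98- and 3.71-fold). Of the 1102 with at most 1 mismatch, 898 had a second-highest fold under 2.

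The signal at the EREs was then compared between ChIP and input in all 1102 promoters with at most 1 mismatch, whether bound or not. For each library, the log2 ratio of the signal in the 200 bp around the ERE to the mean of the same promoter window was averaged, with 0.5 added to both. It was 0.16, 0.16 and 0.14 in ChIP replicates 1, 2 and 3, and 0.0009 and -0.01 in the inputs. All 3 ChIP libraries lay above both inputs, and the difference of the means was 0.16 (exact permutation test over libraries, two-sided, p = 0.1, n = 3 and 2). This is the smallest p that 10 arrangements can give, and it was 0.5 after Benjamini-Hochberg adjustment over 10 motifs. The ratio is taken within each library, but a library-wide scale cancels only in part, because 0.5 was added to both signals. The 2 sets of libraries that share a track-name prefix gave differences of 0.16 and 0.16.

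The difference was graded with the match. It was 0.36 for the 52 perfect EREs and 0.03 for the 11637 promoters with at most 2 mismatches, with every ChIP library above both inputs in each case. It also remained in the 1035 promoters with at most 1 mismatch that were not bound, at 0.09, where the libraries had 0.09, 0.08 and 0.06 against -0.002 and -0.01. Ratios over 1 on the log2 scale were found at 70, 81 and 83 of the 1102 EREs in the ChIP libraries and at none in either input. The medians were 0.03, 0.02 and 0.01 in the ChIP libraries and -0.006 and -0.02 in the inputs. They lay in the same order as the means but closer together, so a minority of EREs carried much of the difference.

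**Figure D4:**
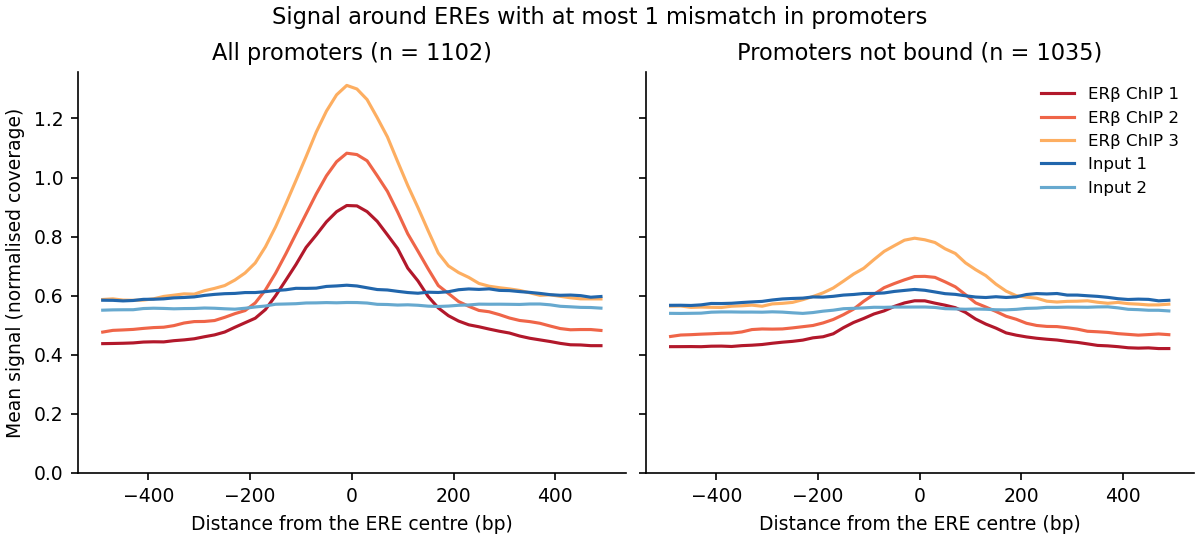
Mean signal (normalised coverage, axis from 0) in 20-bp steps on both sides of the best ERE with at most 1 mismatch, in genome orientation, for all 1102 such promoters and for the 1035 that were not bound. Each line is a library. In all promoters the signal at the ERE was 2.08, 2.25 and 2.22 times that at the edges in ChIP replicates 1, 2 and 3 and 1.07 and 1.04 times in the inputs; in those not bound it was 1.37, 1.43 and 1.39 times against 1.08 and 1.03.

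The bound sites were also centred on the ERE. Of the 57 bound promoters with an ERE within 1 mismatch in the highest 200 bp, the centre of these 200 bp lay at a median of 16.5 bp from the ERE and within 25 bp in 38 (66.7%). In the 282 other promoters with such an ERE in their highest 200 bp, the median was 41.5 bp and 78 (27.7%) lay within 25 bp.

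A perfect ERE went with higher folds inside the bound class, and beyond that the match did not order the folds. The median of the mean fold was 9.30 in the 8 promoters with a perfect ERE. It was 6.4, 5.89 and 6.64 in the 49, 95 and 91 with 1, 2 and 3 mismatches and 6.94 in the 11 with 4 or more. All 8 with a perfect ERE, 33 of 49 with 1 mismatch, 56 of 95 with 2 and 65 of 91 with 3 were over 4-fold in every ChIP library.

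The highest 200 bp were searched on both strands for other motifs, and the same 200 bp of the 30272 promoters that were not bound served as the comparison. The share with an ERE within 2 mismatches was 59.8% in bound promoters (152 of 254) and 8.54% in the others. The half-site AGGTCA was present in 46.9% against 12.6%. The NR5A motif (TCAAGGTCA or CCAAGGTCA), which is read by the orphan receptors LRH-1 and SF-1 and contains the half-site, was present in 14 bound promoters (5.51%) against 0.988%. Both motifs overlap the arm of an ERE, so they were also counted where the highest 200 bp held no ERE within 2 mismatches. There the half-site was in 36 of 102 bound promoters (35.3%) and 3058 of 27687 others (11%), and NR5A in 5 (4.9%) and 203 (0.733%).

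Motifs of other factors were counted in the same way, and GATA, AP-1 and SP1 motifs were more frequent in bound promoters in all 4 GC classes. The motif of GATA factors, AGATAA or its variant TGATAA, was present in 21.7% of bound against 16.3% of other promoters, and AP-1 (TGACTCA or TGAGTCA) in 5.12% against 3.11%. From the lowest to the highest GC class, the shares with a GATA motif were 66.7%, 21.7%, 16% and 10% in bound and 25.4%, 14%, 7.44% and 2.42% in other promoters. Those with AP-1 were 13.3%, 4.65%, 4% and 10% against 3.3%, 3.37%, 2.23% and 1.12%. The lowest and highest GC classes held only 15 and 10 bound promoters. SP1 (GGGGCGGGG) was present in 11.8% against 3.92%, and by GC class in 6.67%, 6.98%, 16% and 40% against 0.202%, 3.28%, 10.8% and 20.3%. These 3 motifs were also counted where the highest 200 bp held no ERE within 2 mismatches, with the GC classes pooled. There GATA was in 17 of 102 bound promoters (16.7%) and 4613 of 27687 others (16.7%). AP-1 was in 10 (9.8%) and 828 (2.99%), and SP1 in 17 (16.7%) and 1090 (3.94%). From the lowest to the highest GC class, the GATA counts were 7, 6, 3 and 1 in bound promoters. In the others they were 2395, 1841, 365 and 12. Bound and other promoters were spread differently over the GC classes, so the pooled shares do not compare promoters of like GC content. FOXO (TGTTTAC), NF-Y (CCAATCA or CCAATGA) and ETS (CCGGAAGT) were in 1.57%, 4.33% and 0.787% of bound against 2.46%, 4.74% and 0.776% of other promoters. CRE (TGACGTCA) was in none of the bound promoters and in 0.453% of the others. In 51 bound promoters (20.1%) no ERE within 2 mismatches, half-site, NR5A, GATA, AP-1, FOXO or CRE was found in the highest 200 bp. The same held for 19346 of the 30272 others (63.9%). SP1, NF-Y and ETS were not part of this set.

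Around these other motifs, the per-library ratio used for the ERE did not separate ChIP from input, with a single exception in the other direction. Where a window held several copies of a motif, the ratio was taken at the first in genome order only. For NR5A it was 0.02, 0.004 and -0.04 in the ChIP libraries and -0.02 and -0.04 in the inputs (exact permutation test, two-sided, p = 0.4). For GATA the means of the groups were -0.06 and -0.06 (p = 1 in the exact permutation test). NF-Y motifs had a lower ratio in ChIP, at -0.02, -0.02 and -0.009, than in input, at 0.03 and 0.02 (exact permutation test, two-sided, p = 0.1, adjusted p = 0.5).

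Binding differed by GC content. The share of bound promoters was 0.151% (15 of 9914) under 45% GC, 0.887% (129 of 14537) from 45% to 55%, 1.81% (100 of 5527) from 55% to 65% and 1.82% (10 of 548) at 65% and over. ChIP replicate 1 alone gave 0.182%, 0.681%, 1.30% and 1.64% over 4-fold in these classes, and replicate 3 gave 0.242%, 1.33%, 3.13% and 5.11%. The excess of replicate 3 over replicate 1 was thus largest in the most GC-rich promoters.

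The whole-window signal showed the same difference between libraries. Under 45% GC, the median signal was 0.381, 0.367 and 0.355 in ChIP replicates 1, 2 and 3 and 0.368 and 0.361 in the inputs, so that the libraries hardly differed. At 65% GC and over, it was 0.495, 0.577 and 0.941 in the ChIP libraries and 0.823 and 0.764 in the inputs. Replicates 1 and 2 lay below both inputs there and replicate 3 above both.

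The median log2 signal of the most GC-rich minus that of the most GC-poor class was 0.18, 0.31 and 0.75 in the ChIP libraries and 0.61 and 0.55 in the inputs. The groups overlapped, and the difference of -0.17 was within the spread between libraries (exact permutation test, two-sided, p = 0.5, n = 3 and 2). ChIP replicate 3 and Input replicate 2 share a track-name prefix with ChIP replicate 2, and within the 2 prefixes the difference was -0.43 and -0.02. The share of all signal that fell into promoter windows, which cover 1.43% of the chromosomes, was likewise 1.82%, 2.00% and 2.40% in the ChIP libraries and 2.38% and 2.24% in the inputs (exact permutation test, two-sided, p = 0.4).

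**Figure D5:**
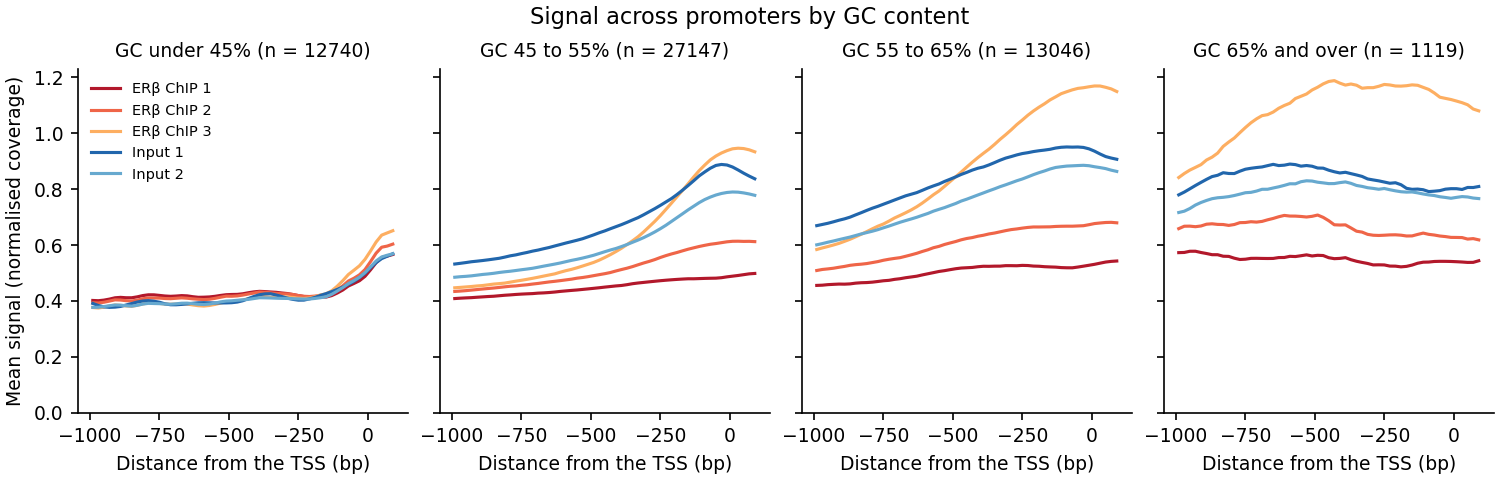
Mean signal (normalised coverage, axis from 0) in 20-bp steps from 1000 bp upstream to 100 bp downstream of the TSS, for TSSs in promoters of 4 GC classes (n, number of TSSs). Each line is a library. From 55% to 65% GC the highest point of the profile was 0.543, 0.681 and 1.17 in ChIP replicates 1, 2 and 3 and 0.951 and 0.885 in the inputs, whereas under 45% GC all 5 libraries peaked between 0.566 and 0.651.

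The inputs themselves rose towards the TSS, so a high signal at a start site was not in itself a sign of binding. From 45% to 55% GC, the mean signal of Input replicate 1 went from 0.532 at the upstream end to 0.888 near the TSS. Division by the input takes up this rise, but not the difference in GC response between ChIP libraries. How far that difference contributes to the bound share of GC-rich promoters was not tested. In ChIP replicate 1 alone, which had the weakest GC response, the share over 4-fold was higher in each GC class than in the one below it. Its signal also rose with GC content, by 0.18 on the log2 scale between the outer classes, so this replicate does not decide the question.

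Bound sites lay closer to the TSS than the highest windows of other promoters. The centre of the highest 200 bp was at a median of -142 bp from the TSS in bound promoters and -370 bp in the others. It was within 400 bp of a TSS in 191 of 254 bound promoters (75.2%), which was not counted in the others. All windows lie near a TSS by definition. Merged windows hold several starts, which shortens the distance to the nearest, and 137 of the 254 bound windows were longer than 1100 bp, against 11593 of all 30526. In the last 200 bp upstream lay 39.8% of bound sites and 27.4% of the highest windows of other promoters, and upstream of -500 bp lay 20.5% against 40.7%. The input rises towards the TSS and lowers the fold there, so the position in unbound promoters is not that of a site.

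Promoters that serve starts on both strands were bound in 1.51% (19 of 1261) and those with starts on a single strand in 0.803%. Windows of 1100 bp were bound in 0.618% (117 of 18933) and longer windows in 1.18% (137 of 11593), so window length goes with this share. Of 133 genes with several windows and at least 1 bound, 131 had a single bound window. The highest unbound window of these genes had a median fold of 1.46 and exceeded 2 in 16 genes. The share of bound windows was 0.487% to 1.23% on the single autosomes, and on chromosome X 1 of 1224 windows (0.0817%) was bound.

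The mean signal over whole promoter windows was tested for a difference between the 3 ChIP libraries and the 2 inputs with limma on log2(signal + 0.5). Of 29675 windows tested, 32 were higher in ChIP (0.108%) and 5 were lower (0.0168%) at an adjusted p under 0.05. The median difference over all windows was -0.11, so most promoters had slightly less signal in ChIP than in input. Of the 32 higher windows, 31 were bound promoters, which is the same contrast as the rule. All 254 bound promoters had a positive difference, with a median of 0.73.

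The higher windows with the smallest p were those of Gm10800, Ccdc117 and Amh. Ccdc117 had a window signal of 5.08, 7.10 and 8.08 in the ChIP libraries and 0.832 and 0.771 in the inputs, a difference of 2.46 ± 0.43 (SE, adjusted p = 0.000396, limma). Amh had 3.89, 4.02 and 2.19 against 0.524 and 0.466, a difference of 1.92 ± 0.34 (SE, adjusted p = 0.000396, limma). In both, every ChIP library was over 4 times the higher input. Gm10800 was the only one of the 32 that was not bound, and its signal was extreme in every library, at 102, 125 and 120 against 44.4 and 83.0. At its highest 200 bp the inputs themselves differed widely, with signal of 1.78 and 69.3.

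The lower windows with the smallest p were those of Cfap157 (0.120, 0.151 and 0.404 against 0.634 and 0.610), Slc35e3 (0.174, 0.244 and 0.303 against 0.684 and 0.5997) and Osbp (0.248, 0.317 and 0.525 against 1.11 and 0.809). The groups did not overlap in these windows, and their differences were -0.65, -0.63 and -0.76 (adjusted p = 0.00756, 0.0162 and 0.0204, limma). All 3 calls were lost without ChIP replicate 1 (adjusted p = 0.0755, 0.0584 and 0.0769, limma), without ChIP replicate 2 and without either input. With median-centred libraries and with GC content removed, Cfap157 (adjusted p = 0.0612 and 0.0666, limma) and Slc35e3 (0.0642 and 0.0666) were not called and Osbp was.

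The same test on 200-bp tiles found a higher tile in 32 of 29729 promoters (0.108%), of which 26 were bound and 22 were also among the 32 higher windows. Both counts depended on single libraries. Without ChIP replicates 1, 2 and 3 in turn, 103, 0 and 239 windows were higher and 16, 0 and 2748 were lower, so that lower windows were the majority without replicate 3. Without Input replicates 1 and 2, 1 and 8 windows were higher and none was lower. At an unadjusted limma p under 0.05, 427 windows were higher and 2731 lower with all libraries, and 432 and 1838 without ChIP replicate 2, 161 and 630 without Input replicate 1, and 122 and 978 without Input replicate 2. Removing the GC dependence of each library gave 321 higher and 12 lower windows, with 31 of the 32 among them.

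Genes of known roles in the ovary and in estrogen action were then looked up by list. The lists were chosen with earlier results of these data known, so a count above the 0.832% of all promoters is not independent evidence. The median fold of every list, 1.23 to 1.51, was close to the 1.29 of all promoters, and binding was limited to a few members of each.

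Of the gonadotropin and TGF-β family list, 4 of 40 windows were bound (10%). Besides Amh and Skil these were Inha, the inhibin alpha subunit (6.02-, 8.72- and 7.83-fold, in a window shared with Obsl1), and Lhcgr, the LH receptor (5.49-, 5.75- and 11.1-fold). Fshr, the FSH receptor, had 1.23-, 1.91- and 1.43-fold, and Inhbb, an inhibin beta subunit, 1.94-, 1.95- and 2.87-fold. Amh was the only promoter of this list that was higher in the window test.

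Of the gonadal transcription factor list, 2 of 35 windows were bound (5.71%), Gata4 and Gata6, and both were higher in the window test (differences of 2.53 and 1.70, adjusted p = 0.000653 and 0.016, limma). Wt1, a factor of pregranulosa and granulosa cells, was close to the threshold with 3.21-, 4.35- and 3.72-fold. Foxl2, which maintains granulosa cell identity, had 1.16-, 1.34- and 1.64-fold.

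Among steroidogenic genes, 1 of 29 windows was bound (3.45%), that of Hsd17b1, the granulosa cell enzyme that converts estrone to estradiol, with 5.71-, 7.59- and 9.48-fold. The signal at its highest 200 bp was 3.64, 5.11 and 6.38 against 0.666 and 0.680 in the inputs. Cyp19a1, the aromatase, had 0.907-, 2.14- and 1.14-fold, and the highest of the 3 Cyp11a1 windows, of the side-chain cleavage enzyme, had 1.14-, 1.05- and 1.18-fold. Of the cholesterol list, 2 of 42 windows were bound, among them that of Dhcr7, a late enzyme of cholesterol synthesis (2.98-, 4.74- and 4.52-fold, shared with Nadsyn1).

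Of the list of estrogen target genes known from other tissues, 3 of 35 windows were bound (8.57%). These were both Nrip1 windows and Fkbp4, a cochaperone of steroid receptors (5.40-, 7.89- and 11.02-fold). Greb1, a classic target in breast cells, reached 1.28-, 1.40- and 3.17-fold in the highest of its windows, Pgr, the progesterone receptor, 1.24-, 1.73- and 1.78-fold, and Tff1 1.24-, 1.04- and 1.02-fold.

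Of the nuclear receptor list, 3 of 97 windows were bound (3.09%). Nr0b2, the corepressor SHP, had 8.08-, 7.60- and 9.85-fold, and 2 windows of Pparg, the fatty acid sensor, had mean folds of 8.03 and 6.90. Esr2 itself had at most 0.869-, 2.47- and 2.12-fold, and Esr1 at most 0.871-, 2.25- and 1.42-fold. Among coregulators, 4 of 57 windows were bound (7.02%), among them those of Nrip1 and Ncoa1 (the coactivator SRC-1, 5.35-, 8.49- and 11.7-fold).

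Single promoters were bound in the circadian list, Tef (5.94-, 6.03- and 12.98-fold), and in the list of immediate early genes, the AP-1 member Fosl2 (5.58-, 6.49- and 8.74-fold). Housekeeping families were not free of bound promoters. Of 91 ribosomal protein windows 2 were bound, those of Rpl15 (7.69-, 10.3- and 13.6-fold, shared with Nkiras1) and Rps10 (5.05-, 7.60- and 6.97-fold). Of 44 histone windows 1 was bound, that of Hist1h4j (7.98-, 11.9- and 11.7-fold). Histone genes are near-identical copies, and the authors used uniquely mapped reads only, so reads shared between copies are absent from the signal. How far this concerns the Hist1h4j promoter was not tested.

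No window was bound among 23 of the ovulation list, 25 of the oocyte list and 35 of marker genes of other cell types. Since 0.832% of all promoter windows were bound, this is the usual outcome for lists of 23 to 35 windows. Among 2036 windows of olfactory receptors, genes expressed mainly in sensory tissue, none was bound either. The highest in these lists were Sult1e1 (1.68-, 2.55- and 3.04-fold), Lhx8 (1.65-, 3.69- and 1.11-fold), Acta2 (1.75-, 2.73- and 1.96-fold) and Olfr159 (3.55-, 4.12- and 1.498-fold). The median GC content of the olfactory receptor windows was 36.0%, in the class with the lowest share of bound promoters (0.151%).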

How the data were processed

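The members, lists and tests were chosen with earlier results of these data known. Per the labels and the study's methods, the authors aligned uniquely mapped reads to mm10 with STAR and made the tracks with HOMER (versions are not given in the sources used here). The deposited values are signal (normalised coverage) in segments of variable length. Over all segments of a track, the median length was 269 bp in Input replicate 1 and 481 to 519 bp in the other libraries. The segment length within peaks was not measured.

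Start sites came from GENCODE vM21 and sequence from GRCm38. Means over windows were computed exactly from the segments (numpy 2.4.6, pandas 2.3.3). Sliding windows of 200 bp at 10-bp steps gave the fold over the mean of both inputs, floored at the genome mean of the inputs. GC classes were cut at 45%, 55% and 65%. The ERE was matched in its 10 fixed bases, and the other motifs without mismatch.

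limma 3.58.1 (lmFit and eBayes with a trend) tested windows and 200-bp tiles with a mean signal of at least 0.1 on log2(signal + 0.5), with Benjamini-Hochberg adjustment. Fold changes on this scale understate changes at low signal. On simulated windows, 8, 49, 50 and 50 of 50 changed windows were recovered at log2 changes of 0.5, 1, 2 and 3. There were 9 false calls among 29675 windows. The simulated noise was equal in all windows and libraries and held no GC response, so recovery in the data may be lower. In the data, windows with a difference over 1 were partly called (Zbtb40, 1.14) and partly not (Skil, 1.33, adjusted p = 0.0764, limma). Single values were compared by exact permutation of the 5 libraries. Alternatives covered the fold, inputs, floor, window width, annotation, pseudocount, filter, scaling, GC content, blocks and each library left out.

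Named were the 15 highest promoters over 4-fold in all 3 ChIP libraries, the 3 nearest to the threshold on each side, up to 5 bound members of each of the 15 gene lists or its highest member, the 3 windows with the smallest p in each direction, and the 5 highest bound promoters with a perfect ERE. The other promoters named were chosen after their values were seen. Some members that the rule names are not reported here. Files of the 2 ChIP samples from ovaries with deleted ERβ were not analysed here. Duplicate removal and fragment length of the tracks are not stated.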

Additional observations from a re-analysis of the deposited data

How the results depend on the processing

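The number of bound promoters, 254, stayed between 216 and 337 with another input, floor, annotation, window of 100 bp or local background, and with each ChIP library over the input of its own track-name prefix (311, chosen after seeing the data). It was 80 over 8-fold, 168 in all 3 ChIP libraries, 151 with 400-bp windows (all among the 254) and 146 within -250 to +50 bp, and 176 to 326 without 1 library. The held-out fold of 7.19 was 11.96 over 8-fold, which chooses higher promoters.

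The window test moved most. Higher windows numbered 56 and 7 with pseudocounts of 0.1 and 1, 1 with no filter, 150 with median-centred libraries, 321 with GC content removed, 130 with the replicate block, 5 with the track-name prefix as a term, and 0 to 239 without 1 library. Lower windows numbered 2, 12, 1200 and 2 with centring, GC removal, the replicate block and the prefix, and 0 to 2748 without 1 library. Promoters with a higher tile numbered 103 and 6 with the pseudocounts, 2 with no filter, 105 centred, 306 with GC removed, 271 with the replicate block and 2 to 226 without 1 library. The share of higher among all calls thus depended on scaling and GC, and the cause was not tested. Deviations of libraries with the same title number correlated at -0.08 and 0.02 across windows, and the paired numbering was not used in the main tests. The deviations of 2 inputs from their mean are mirror images, so these correlations cannot decide whether libraries were paired.

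The differences in signal share, GC contrast and ERE contrast kept their direction under every alternative run, at -0.407 to -0.115, -0.34 to -0.05 and 0.15 to 0.16 without 1 library. The tracks hold no read counts, and the exact permutation test of 3 against 2 libraries cannot go below a p of 0.1.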

Other observations

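Among the 52 promoters with a perfect ERE, 7 belonged to the Zscan4 cluster, genes of the 2-cell embryo that are near-identical copies. In 5 of them the mean signal over the 5 libraries was under 0.1, and the highest value of any library in the 7 windows was 0.285. Reads that map to several places were not used by the authors, so low signal there does not show whether these EREs were bound. Of the 1102 promoters with an ERE within 1 mismatch, 12 had a mean signal under 0.1, out of 851 promoter windows in all.

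Of the bound promoters, 73 were CpG-rich (at least 55% GC and a CpG observed/expected ratio of at least 0.6), which is 2.1% of such promoters against 0.669% of the others. The ratio of the fold in ChIP replicate 3 to that in replicate 1 at the bound sites had a median of 1.08 under 45% GC, 1.54 from 45% to 55%, 1.62 from 55% to 65% and 1.77 at 65% and over.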
